A study of Drosophila melanogaster with 12 samples.

Results

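Autosomal CP190-only regions inside genes are stretches of chromatin bound by the insulator protein CP190 in Drosophila Kc167 cells, away from gene ends and without a reproducible peak of the zinc-finger protein CLAMP. They were chosen from the mock peak lists alone. A reproducible region was the union of overlapping peaks of an antibody's 2 mock lists with a peak in both. A member was a reproducible CP190 region on arm 2L, 2R, 3L or 3R that overlapped no reproducible CLAMP region. Its mean mock summit lay inside a protein-coding gene and more than 500 bp from the annotated start or end of every protein-coding gene. The rule found 1131 members among 7359 reproducible CP190 regions (15.4%), of which 5950 were autosomal. The members numbered 251 on 2L, 247 on 2R, 291 on 3L and 342 on 3R. Because calls in the mock lists chose them, mock values below are a description with no test, and so is the loss of calls itself.

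Kc167 is an established line labelled as female and of embryonic stage. Mock cells were electroporated with no RNA, and dsCP190 cells with 12 µg of double-stranded RNA against CP190. Both were grown for 6 days, and immunoprecipitation took chromatin of 200 to 500 bp and 5 µg of a CP190 or CLAMP antibody, with 2 replicates per group. The labels do not say whether replicates were separate cultures, so the spread between them may be technical. The depletion of CP190 itself was not measured in the files analysed.

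CP190 is a zinc-finger protein with a BTB domain that does not usually choose its sites alone. Sequence-specific insulator proteins such as Su(Hw), CTCF and BEAF-32 bring it to DNA, and it takes part in contacts between distant chromatin sites. Many of its sites lie at promoters, often of housekeeping genes. Others lie within introns or between genes, where boundaries and enhancers are also found. CLAMP binds GA-rich repeats and is known for its part in dosage compensation of the male X chromosome.

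On the chromosome arms, the mock CP190 lists held 7669 and 7964 peaks and the dsCP190 lists 2047 and 3138. The group ratio was 0.332, and a two-sided exact permutation test with n = 2 against 2 gave p = 0.333, the smallest this design allows. Read totals were not used here. Whole fragment numbers at the summits were recovered from the authors' fold and p for 99.9% or more of the regions in every list. At the 155 members called in all 4 lists, the median local background was 9.88 and 13.9 fragments in the mock replicates, against 9.45 in dsCP190 replicate 1 and 7.47 in replicate 2. Both dsCP190 libraries thus had a lower background there than both mock libraries, and the part of depth in the loss of calls was not tested.

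CP190 was called at few members after dsCP190. In dsCP190 replicate 1 a peak overlapped 162 of 1131 members, or 14.3% (95% Wilson interval 12.4 to 16.5), where 24.2% of all reproducible CP190 regions had one. In dsCP190 replicate 2 it overlapped 305 members, or 27.0% (24.5 to 29.6), against 40% of all regions. No peak was present in either list at 819 members (72.4%, against 58.4% of all regions), here called lost. A peak was present in both lists at 155 members (13.7%, against 22.6%), here called kept, which speaks of the call only. Of the other members, 150 were called in replicate 2 only (13.3%, against 17.4%) and 7 in replicate 1 only. Without dsCP190 replicate 1, which had the shorter list, 305 members counted as kept. Wilson intervals cover counting error over regions only.

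The arms gave a similar picture. In dsCP190 replicate 1 the share of members called ran from 10.8% on 2L to 18.6% on 3L, and in replicate 2 from 19.9% on 2L to 30.8% on 2R. Arm 2L had the lowest share in both libraries. On each of the 4 arms the members' share was below that of the other CP190 regions of the arm in both libraries, which ran from 24.1% to 28.5% and from 39.6% to 44.2%. No test was made per arm.

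The members were somewhat weaker and narrower than CP190 regions in general. Their median mock fold enrichment over local background, the authors' own value for a peak, was 7.54 in replicate 1 and 7.36 in replicate 2, against 8.46 and 8.27 for all reproducible regions. It ranged from 1.57 to 51.0 and from 1.65 to 52.1. CP190-only regions at gene ends had median folds of 7.80 and 7.77, intergenic ones 9.14 and 8.69, and shared regions inside genes 6.41 and 6.23. The median width of members was 638 bp and 658 bp, against 759 bp and 799 bp for all regions. It was 740 bp and 786 bp at gene ends, 673 bp and 703 bp between genes, and 783 bp and 843 bp in shared regions inside genes. The median summit of a member held 76 and 100 fragments, against 100 and 131 for all regions. Members were placed between replicates much as all regions were. The mock summits of a member lay a median of 20 bp apart, and 83.5% lay within 50 bp, against 20 bp and 81.1% for all regions. Where CP190 was still called, its summit lay a median of 21.5 bp in replicate 1 and 22 bp in replicate 2 from the mean mock summit. Over all regions these medians were 29.5 bp and 26.5 bp.

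Strength in mock cells ordered the calls after dsCP190. Regions were placed in 5 quintiles by the mean of their ranks in the 2 mock lists, over all reproducible regions. The members fell into them, from weakest to strongest, as 288, 247, 186, 213 and 197. In dsCP190 replicate 1 the shares of members called were 0%, 0.405%, 2.15%, 18.8% and 59.4%, and the 0 of 288 allows a share of up to 1.32% as a Wilson bound. In replicate 2 they were 1.04%, 2.83%, 12.9%, 48.8% and 84.8%. Lost members had a median mock fold of 5.51 and 5.43. Members called in 1 dsCP190 list had 14.8 and 14.4, and kept members had 23.4 and 21.3. The weakest quintile had a median mock fold of only 3.53 in both lists over all regions, and the weakest member called in a dsCP190 list held 15 fragments in replicate 1 and 14 in replicate 2.

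**Figure D1:**
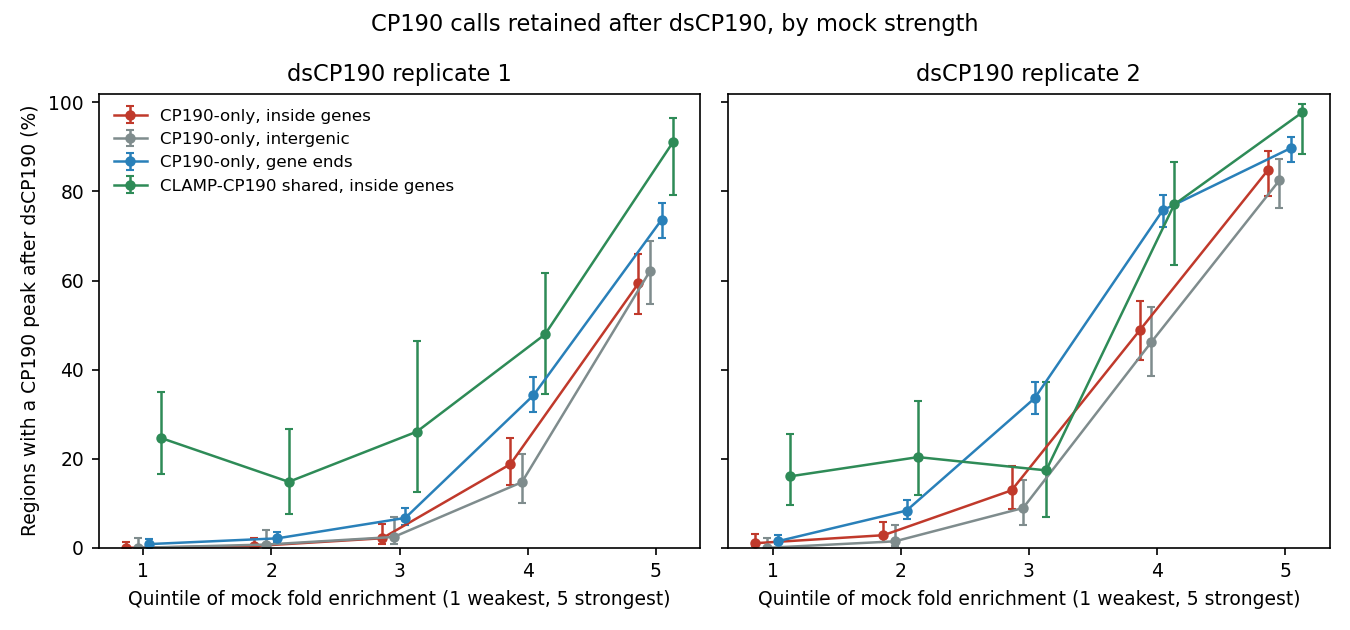
Share of regions (%) with a CP190 peak in dsCP190 replicate 1 (left) and replicate 2 (right), against the quintile of mock fold enrichment. Lines join 4 classes of autosomal regions, and bars are 95% Wilson intervals over regions. CP190-only regions inside genes rose from 0% to 59.4% and from 1.04% to 84.8%, close to the intergenic class and below the gene-end class in every quintile of both libraries.

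Members were less often called than other autosomal CP190 regions of like mock fold enrichment. The comparison used the odds ratio of being called, pooled over the 5 quintiles by the Mantel-Haenszel method and computed once for each dsCP190 library. Members were said to differ where the 95% intervals of both libraries excluded 1 on 1 side. Against all 4819 other autosomal regions the odds ratio was 0.360 (0.286 to 0.454) in replicate 1 and 0.342 (0.278 to 0.422) in replicate 2. Against the 2936 CP190-only regions at gene ends it was 0.447 (0.349 to 0.573) and 0.356 (0.286 to 0.445). In the fourth quintile 34.2% and 75.8% of regions at gene ends were called, against 18.8% and 48.8% of members. Both differences passed the rule. The quintiles held fold alike, not fragment numbers. Members had median mock fragments of 76 and 100 over backgrounds of 9.23 and 12.6. Regions at gene ends had 98 and 130 over 11.5 and 15.6. The part of fragment numbers in the odds ratios was not tested.

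The lowest of the 4 odds ratios was against regions that lie inside genes and also carry CLAMP. Against these 251 shared regions the odds ratio was 0.111 (0.0691 to 0.179) in replicate 1 and 0.206 (0.130 to 0.325) in replicate 2. This difference passed the rule too. In the strongest quintile 91.1% and 97.8% of the 45 shared regions were called, against 59.4% and 84.8% of members. In the weakest quintile 24.7% and 16.0% of 81 shared regions were called, against 0% and 1.04% of members. The median mock fold of the shared regions was 6.41 and 6.23, below that of the members. Their median mock fragments were 85 and 114 over backgrounds of 12.3 and 16.7, all above those of the members.

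Members were not shown to differ from CP190-only regions between genes. Against these 759 regions the odds ratio was 1.02 (0.736 to 1.40) in replicate 1 and 1.24 (0.927 to 1.67) in replicate 2. In the strongest quintile 62.1% and 82.5% of intergenic regions were called, against 59.4% and 84.8% of members. The intervals span 1, and they leave room for differences in either direction. Intergenic regions had median mock fragments of 81 and 109 over backgrounds of 8.39 and 11.8. Regions are not replicates, and all these intervals rest on the same 4 CP190 libraries.

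**Figure D2:**
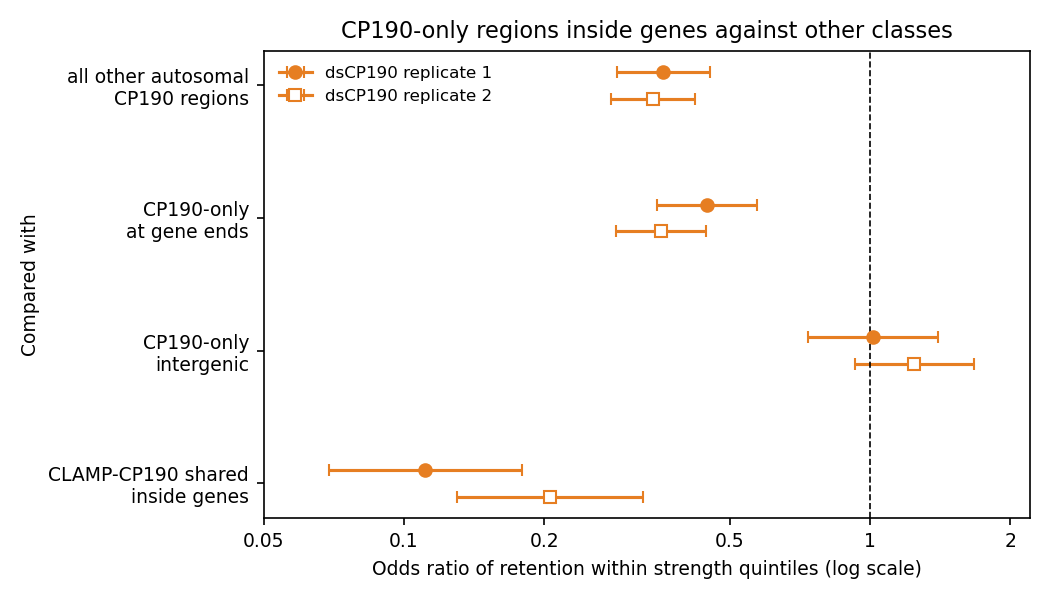
Odds ratio (log axis) of a CP190 call after dsCP190 for CP190-only regions inside genes against 4 other classes, within quintiles of mock fold enrichment. Filled circles are dsCP190 replicate 1, open squares replicate 2, bars 95% intervals and the dashed line an odds ratio of 1. Both intervals lie below 1 for 3 classes and span 1 for the intergenic class.

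The rule removed regions with reproducible CLAMP, so little CLAMP at the members follows from the choice. A CLAMP peak of a single list still overlapped 25 members (2.21%) in mock replicate 1 and 18 (1.59%) in replicate 2, against 2.24% and 2.64% of CP190-only intergenic regions and 5.62% and 7.63% of those at gene ends. Of the members, 41 had a CLAMP peak in 1 mock list. 1 further member met separate CLAMP peaks in both. These 41 were called for CP190 in dsCP190 replicate 1 at 22 members (53.7%) and in replicate 2 at 24 (58.5%). The 1089 members with no mock CLAMP peak were called at 140 (12.9%) and 281 (25.8%). The 41 were also stronger in mock cells, with a median CP190 fold of 12.8 and 13.0 against 7.44 and 7.16, and the part of that strength was not tested. In dsCP190 cells a CLAMP peak overlapped 1 member in replicate 1, in E2f1, the activating E2F factor of the cell cycle, where 11.7% of all autosomal CP190 regions, those chosen for CLAMP included, had one. The other CP190-only classes were also low, at 0.851% for gene ends and 0.395% for intergenic regions. In replicate 2 a CLAMP peak overlapped 0 of 1131 members, which allows a share of up to 0.265%, where 3.65% of all autosomal regions had one. It also overlapped 0 of 2936 CP190-only regions at gene ends and 0 of 759 between genes.

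Genes with only a CG or CR number aside, the strongest lost members were in genes of varied function. The region in Rbfox1, which encodes a splicing regulator, lay on 3L from 10507687 to 10508683 (dm6), 15229.5 bp from the nearest gene end. Its fold was 45.0 in mock replicate 1 and 38.5 in replicate 2, from 222 and 262 fragments, and it had no peak in either dsCP190 list. It ranked above 99.4% and 99.5% of the peaks of its mock lists. A weaker region in the same gene, with mock folds of 5.49 and 3.89, was lost too. The region in Gfrl, a receptor of the GDNF receptor family, lay on 3R from 20463281 to 20465358, with folds of 32.6 and 33.2. All 4 members in Gfrl were lost.

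Other strong regions without a call after dsCP190 had mock folds between 18.4 and 36.9. In Acsf2 on 2L, from 5340485 to 5341847, the folds were 29.9 and 36.9. In Sytalpha, a synaptotagmin of the vesicle fusion machinery, they were 25.6 and 27.8. In snu, an ABC transporter needed for the cuticle barrier, they were 23.4 and 27.1. These regions were near the top of both mock lists and absent from both dsCP190 lists. In mtt, a receptor related to metabotropic glutamate receptors, the folds were 22.9 and 21.1. In bru3, an RNA-binding protein of the Bruno family, they were 26.6 and 18.5. In slif, an amino acid transporter, they were 22.1 and 19.7, from 304 and 378 fragments. All 3 again lacked a peak in both dsCP190 lists. CYLD, a deubiquitinase, had folds of 19.2 and 22.6. Argk1, arginine kinase, had 20.1 and 20.8. In pdm3, a POU-domain factor, they were 20.3 and 20.4, and in Dgk, a diacylglycerol kinase, 22.3 and 18.4. The mock replicates thus gave close values for most of these regions, the widest gap being in bru3.

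With the same genes left aside, the strongest kept members included Hox and ecdysone-response genes. In RapGAP1, which switches off the small GTPase Rap1, the region on 2L from 7533629 to 7535964 had folds of 49.9 and 43.8 in mock and 11.3 and 13.4 in dsCP190. Both members in this gene were kept. In Wdr62, a spindle pole protein, the region on 2L from 1909168 to 1910686 had folds of 44.4 and 52.1 in mock and 16.7 and 36.7 in dsCP190. In pb (proboscipedia), a Hox gene of the Antennapedia complex, the region on 3R from 6708357 to 6710124 had 48.8 and 38.9 in mock and 13.3 and 13.0 in dsCP190. These regions were chosen by their mock ranks, and the fold of each was lower in both dsCP190 lists than in both mock lists. By place within its list the Wdr62 region overlapped. It ranked above 99.3% and 99.97% of mock peaks and above 98.3% and 99.6% of dsCP190 peaks. The folds stand side by side and were not tested, since a fold is relative to its own library's background.

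The kept regions in Antp and Abd-B had low fragment numbers after dsCP190. In Antp, the Hox gene of the second thoracic segment, the region on 3R from 6907696 to 6908939 also lies in CG46458. Its folds were 43.6 and 39.3 in mock and 3.46 and 3.80 in dsCP190, and its summit held 347, 430, 27 and 20 fragments in that order. In Abd-B, the Hox gene of the posterior abdomen, the region on 3R from 16957487 to 16958354 had folds of 37.1 and 37.2 in mock and 3.57 and 5.24 in dsCP190, from 284, 333, 31 and 26 fragments. Both were among the strongest mock peaks and near or below the middle of the dsCP190 lists. Where only peaks with a −log10 q of at least 10 were counted, the Antp region had no dsCP190 call and the Abd-B region had 1. Abd-B held another kept region, from 16969276 to 16970570, with folds of 47.4 and 21.6 in mock and 4.17 and 7.48 in dsCP190.

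In the kept regions of GstS1, Jupiter and Eip74EF, dsCP190 replicate 2 stood not far below the lower mock fold, and replicate 1 was lower. In those of Lmpt, nrv2, Sytbeta and pyd both dsCP190 replicates stood well below both mock replicates. In GstS1, a glutathione S-transferase, the folds were 46.0 and 34.8 in mock and 14.1 and 32.8 in dsCP190. In Jupiter, a microtubule-associated protein, they were 43.8 and 32.9 in mock and 20.9 and 30.3 in dsCP190. In Eip74EF, an ecdysone-induced ETS factor, they were 45.2 and 32.2 in mock and 14.7 and 25.2 in dsCP190. The dsCP190 replicates thus differed from each other at these regions. In Lmpt, a LIM-domain protein, the folds were 37.9 and 40.8 in mock and 7.42 and 19.9 in dsCP190. In nrv2, a beta subunit of the sodium pump, they were 42.2 and 39.5 in mock and 15.4 and 19.5 in dsCP190. In Sytbeta, a synaptotagmin, they were 37.7 and 44.7 in mock and 3.60 and 5.01 in dsCP190. The gap between dsCP190 replicates was wide in pyd, the ZO-1 homologue of cell junctions, with folds of 42.0 and 35.0 in mock and 2.30 and 8.78 in dsCP190. There the local background in dsCP190 replicate 1 was 18.1 fragments, against 6.92 and 10.8 in mock and 8.34 in replicate 2.

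Over all 155 kept members the mock medians of fold were 23.4 and 21.3, and those after dsCP190 were 4.65 and 8.78. The median fragments at the summit were 275 and 333 in mock and 49 and 73 in dsCP190. All 1661 kept CP190 regions had medians of 21.1 and 18.6 in mock and 4.50 and 8.24 in dsCP190, so the kept members stood near the kept regions in general. In the strongest quintile the 116 kept members had 5.51 and 10.6 after dsCP190, and the 1080 kept regions had 5.73 and 10.7.

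Among members called in 1 dsCP190 list, again without genes that have only a CG or CR number, the strongest were called in replicate 2. In Pdp1, a bZIP factor of the circadian clock, the folds were 30.2 and 25.8 in mock and 9.47 in dsCP190 replicate 2. In heph, the polypyrimidine tract-binding protein, they were 28.0 and 28.2 in mock and 4.29 in replicate 2. In twi, the mesodermal bHLH factor, they were 27.5 and 26.4 in mock and 4.33 in replicate 2, and in Arms they were 26.6, 25.7 and 6.36. Replicate 1 had no peak at these 4 regions. Pdp1 held 2 further members, both kept, with dsCP190 folds of 3.75 and 8.75 and of 4.48 and 9.64, so no member of this gene was lost.

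**Figure D3:**
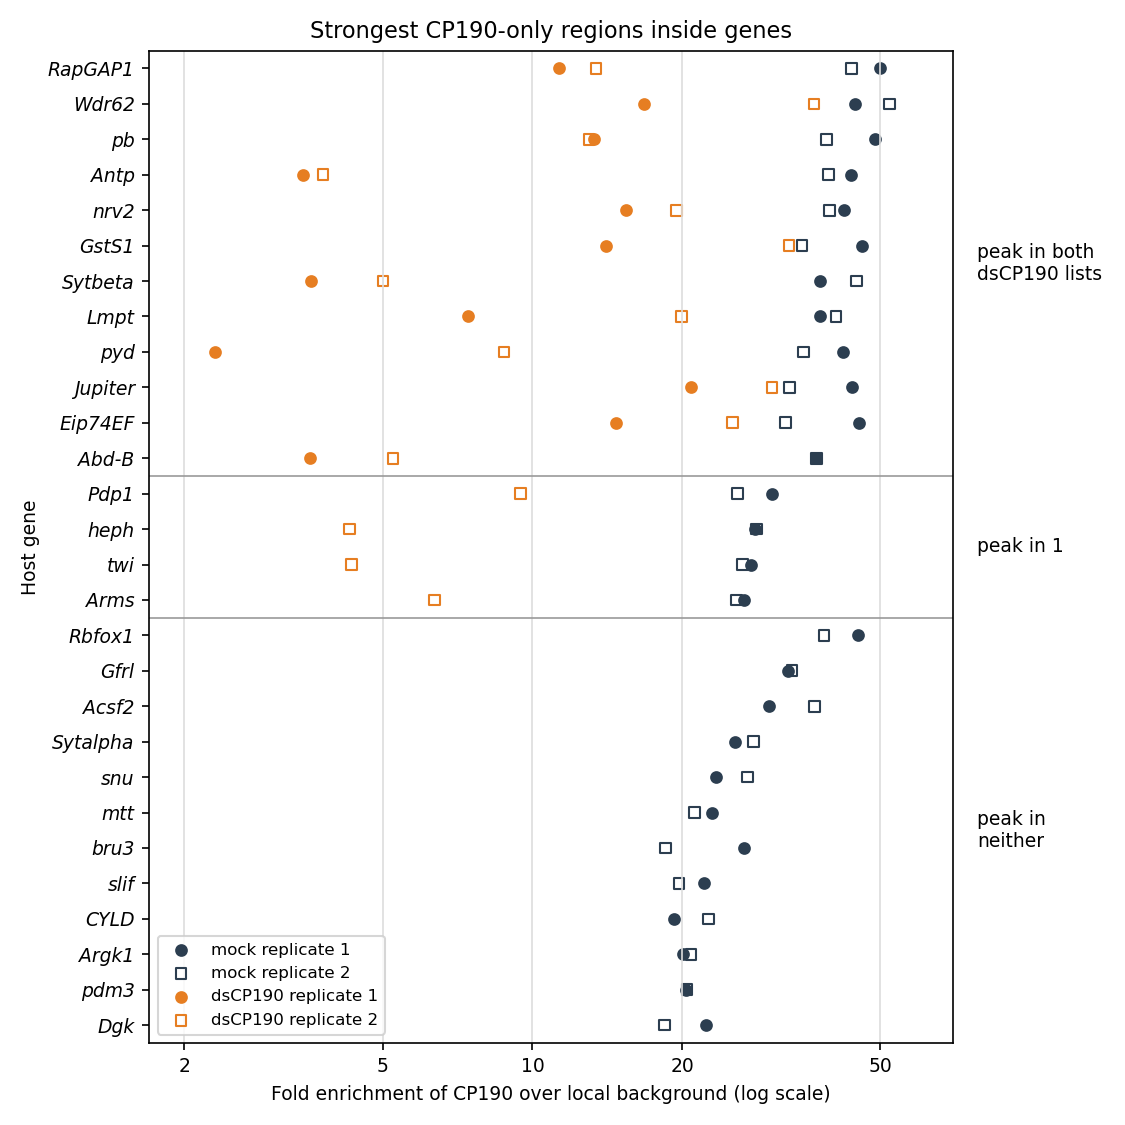
CP190 fold enrichment over local background (log axis) of the strongest members called in both, in 1 or in neither dsCP190 list. Each row is a region named by its host gene, and genes with only a CG or CR number are left out. Dark symbols are mock and orange symbols dsCP190, filled for replicate 1 and open for replicate 2. A missing orange symbol means no peak in that list. Kept regions run from 2.30 to 36.7 after dsCP190, and the lost Rbfox1 region at 45.0 and 38.5 in mock has no orange symbol.

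The members were spread over 727 of 11639 autosomal protein-coding genes (6.25%), and these genes were long. Their median length was 23973 bp, against 2079 bp for all autosomal protein-coding genes, and they had a median of 4 annotated transcripts, against 1 for the other genes. A long gene has more room more than 500 bp from its ends, so the rule itself favours it. The share of genes holding a member rose from 0.337% of genes up to 2000 bp to 41.7% of those from 20000 to 50000 bp and 85.7% of the 63 genes over 100000 bp. Counted per Mb of gene interior, members were much more even. They ran from 10.8 in genes of 2000 to 5000 bp to 21.8 in genes of 20000 to 50000 bp, with 16.6 in the longest class. Gene interior was all sequence more than 500 bp from the gene's own ends, and a member inside several genes counted for each. A CP190 region also lay at an end of 300 host genes (41.3%), where 47.5% of all genes, mostly shorter, had one. By length class, hosts stood at 43.1% against 61.1% of non-hosts from 5000 to 10000 bp. From 10000 to 20000 bp they stood at 50.8% against 54.7%, from 20000 to 50000 bp at 41.7% against 47.3%, and from 50000 to 100000 bp at 43.2% against 44.4%. Hosts up to 2000 bp stood at 0% against 39.2%, and those from 2000 to 5000 bp at 39.1% against 57.5%. Over 100000 bp the values were 25.9% against 11.1%. There 54 of the 63 genes were hosts, so the non-hosts were too few for a comparison. Introns and exons, strand and transcript starts inside genes were not separated here, so members at starts of shorter transcripts could not be told from the rest.

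**Figure D4:**
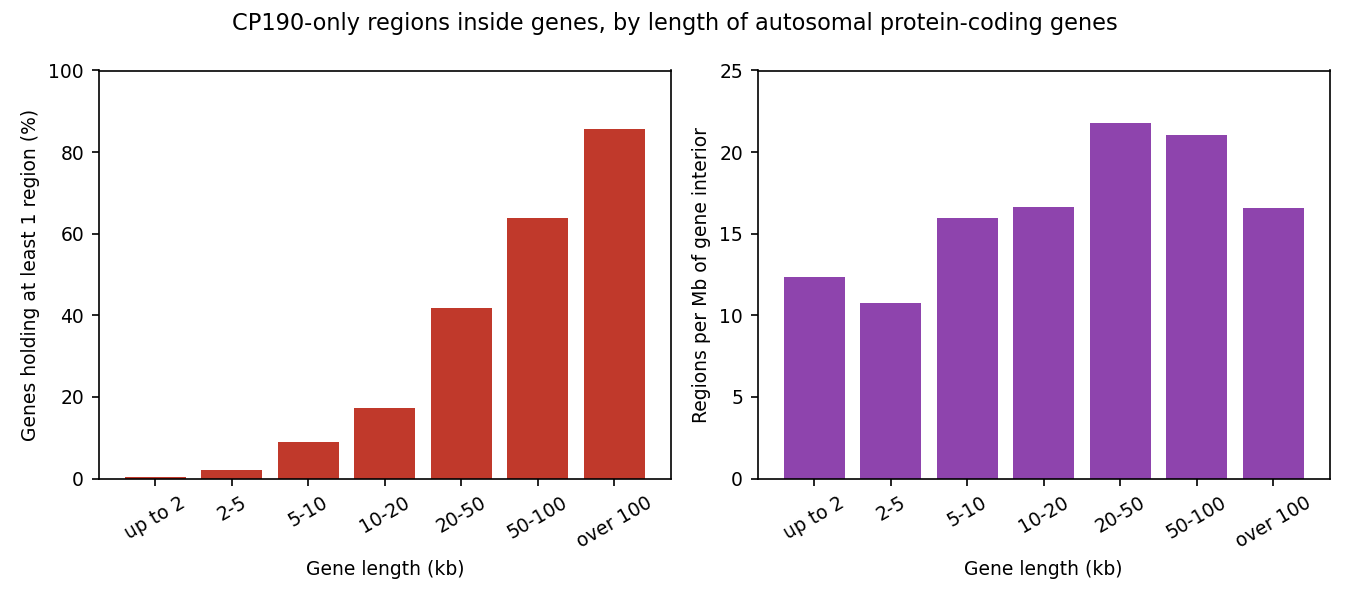
Autosomal protein-coding genes by length in kb: share holding at least 1 CP190-only region inside (left, %). The right panel gives such regions, counted once per host gene, per Mb of sequence more than 500 bp from the gene's own ends. The share climbs from 0.337% to 85.7%, whereas the density stays between 10.8 and 21.8 per Mb.

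Members lay a median of 4589.5 bp from the nearest protein-coding gene end, and the farthest lay 304494 bp away. The 150 members at 500 to 1000 bp were called at 20.0% and 38.0% after dsCP190, and the 31 members beyond 50000 bp at 6.45% and 9.68%. The median mock fold fell along the same bins, from 9.09 and 9.13 to 5.18 and 4.55. Within the strongest quintile there was no steady order: 64.5% and 93.5% of 31 members were called at 500 to 1000 bp, 50.0% and 87.5% of 32 at 5000 to 10000 bp, and 72.2% and 88.9% of 18 at 20000 to 50000 bp. Just inside the 500 bp limit were the members in CG12831 at 501 bp (lost; mock folds 18.2 and 17.7), Ptp61F at 503.5 bp and CG3277 at 504.5 bp (lost; 3.05 and 3.88). The Ptp61F region, in a protein tyrosine phosphatase gene, had folds of 8.46 and 6.26 in mock and 13.9 in dsCP190 replicate 2. That replicate 2 peak was a wide one that also covered the next region in Ptp61F. Just outside were the regions in alpha-Catr at 492.5 bp (lost; 9.11 and 10.1), CG13285 at 495.5 bp (mock folds 12.3 and 11.6, 2.88 in replicate 2) and Ance-3 at 498.5 bp (lost; 14.1 and 16.8).

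Of the host genes, 496 held 1 member and 231 held 2 or more. In 121 of the 231 every member was lost, in 97 some were lost and some called, and in 13 none was lost. Every member was kept in 4 of these 13. A member's nearest other member lay a median of 14977.5 bp away, and 289 (25.6%) had one within 5000 bp. The 25 genes with 5 or more members held 179 of them, and 161 of these (89.9%) were lost, against 658 of the other 952 (69.1%). Members in these 25 genes were also weaker: 57.5% were in the weakest 2 quintiles, against 45.4% of the others, and the part of strength in this gap was not tested.

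The gene with the highest count was bru3 on 3L, from 13521907 to 13803400, an RNA-binding gene of 281494 bp with 20 members. All 20 were lost, where 72.4% of all members were. Their median mock fold was 4.65 and 5.43, and the strongest had 26.6 and 18.5. Dys, which encodes dystrophin, held 11 members on 3R, 10 of them lost. Its strongest region, with mock folds of 25.7 and 21.8, had 4.01 in dsCP190 replicate 2 and no call in replicate 1. The other Dys members had mock folds of no more than 9.81 and 9.12.

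In heph and sick the strongest member was kept. In heph, 8 of 11 members were lost, near the 72.4% lost among all members. Its strongest, on 3R from 31945303 to 31946382, had folds of 32.6 and 28.4 in mock and 6.12 and 10.9 in dsCP190. A lost member of heph had mock folds of 15.6 and 16.0, above the 12.6 and 12.8 of one called in replicate 2. In sick, a gene known for actin remodelling and axon growth, 7 of 10 were lost, again near that share. Its strongest member, on 2L from 19914696 to 19915954, had 34.4 and 26.4 in mock and 5.81 and 8.62 in dsCP190. In Ten-m, a teneurin of synaptic partner matching, 8 of 9 were lost, and the strongest had 18.3 and 16.7 in mock and 3.59 in replicate 2. In Dys, heph, sick and Ten-m the strongest member of the gene was called in at least 1 dsCP190 list, and in bru3 it was not. All 5 were in the strongest quintile, where 59.4% of members were called in replicate 1 and 84.8% in replicate 2. These genes are too few for a statement on a pattern.

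**Figure D5:**
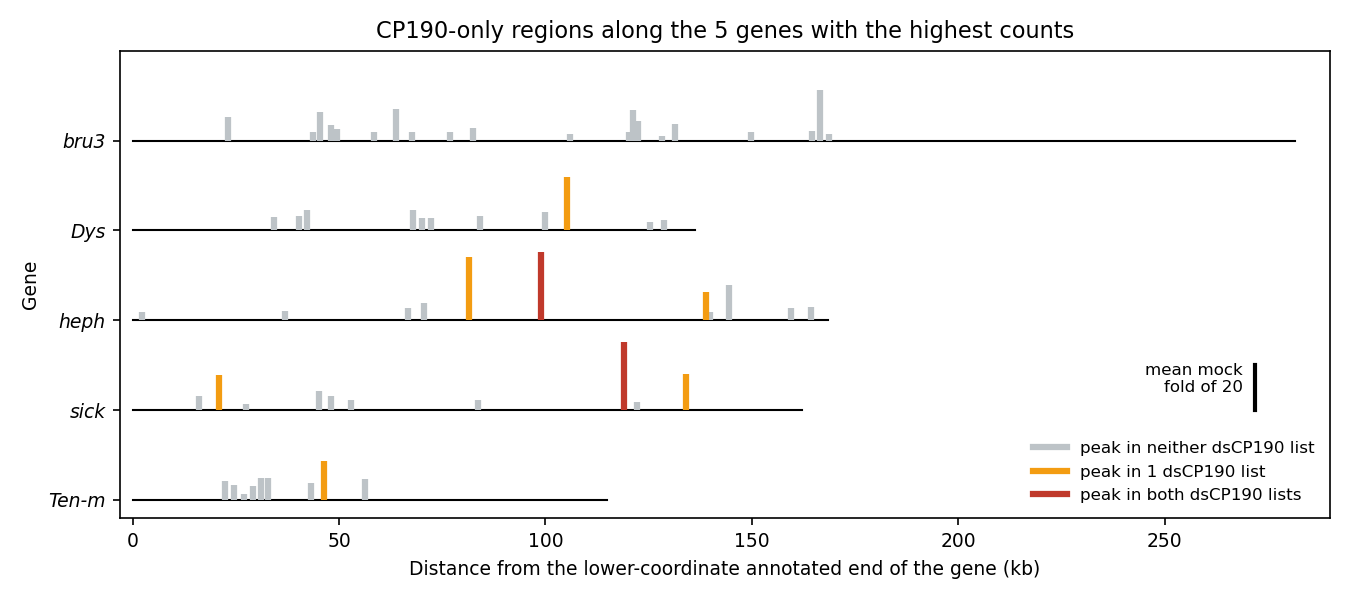
CP190-only regions along bru3, Dys, heph, sick and Ten-m, placed by distance (kb) from the lower-coordinate annotated end of each gene, drawn as a horizontal line to scale. Bar height is the mean mock fold, with a scale bar of 20, and colour shows the call after dsCP190. All 20 bars of bru3 are grey, and the tallest bars of heph and sick are those called in both lists.

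Other genes with 5 or more members were named after their values were seen. Of all members 72.4% were lost, and of those in genes with 5 or more members 89.9%. In pum, the translational repressor Pumilio, 7 of 8 members were lost and the kept one had folds of 28.9 and 28.7 in mock and 3.16 and 3.34 in dsCP190. In Glut1, a glucose transporter, 4 of 5 were lost and the kept one had 27.8 and 26.8 in mock and 8.27 and 7.88 in dsCP190. Every member was lost in Fur1 and tei (7 each), in Dpp10, Dscam4, nAChRalpha1, Hs6st, ed, CG42784 and luna (6 each) and in hoe1, CG42324, ttv, nAChRalpha6 and bru1 (5 each). Dscam4 and ed encode cell adhesion proteins, and nAChRalpha1 and nAChRalpha6 encode acetylcholine receptor subunits. The highest median mock fold of these all-lost genes was 8.14 and 8.21, in Dscam4. Lmpt went the other way, with a median mock fold of 21.0 and 21.5 and 1 of 5 members lost.

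Gene groups were described by how many of their autosomal genes held a member, beside the number that the length classes of their genes would give. Of 12 Hox complex genes, 3 held members (3.54 by length): pb, Antp and Abd-B. Of their 7 members 4 were kept and 3 were lost, beside 13.7% and 72.4% of all members, and the 3 lost ones had mock folds of no more than 5.41. Of 20 segmentation transcription factor genes none held a member (2.48 by length). Of 77 cytosolic ribosomal protein genes, which are short, none did (0.457 by length).

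Ecdysone-response genes, which carry the transcriptional answer to the moulting hormone, held 12 members in 7 of 13 genes (5.93 by length). Of these 12, 5 were kept, 6 were lost and 1 was called in a single list, where 13.7% of all members were kept and 72.4% lost. These 12 are too few for a statement on the list. Eip75B, a nuclear receptor, held 2 kept regions: 1 had folds of 26.9 and 25.8 in mock and 9.70 and 13.6 in dsCP190, and the other 39.8 and 20.3 and then 8.69 and 17.9. Eip78C, also a nuclear receptor, had 18.9 and 18.5 in mock and 4.16 and 15.3 in dsCP190. Eip63E, a cyclin-dependent kinase, had 1 kept region with 11.7 and 11.4 in mock and 3.97 and 7.90 in dsCP190. Both members in EcR, the ecdysone receptor, were lost, the stronger with mock folds of 18.4 and 14.6, and so was the member in Eip93F.

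Neuronal and adhesion genes held 28 and 33 members, where 72.4% of all members were lost. Of 12 neuronal genes 7 held members (4.85 by length), and 27 of their 28 members were lost, 20 of them in bru3, whose members were weak in mock cells. The exception was in Rbp9, an ELAV-family RNA-binding protein, with folds of 24.7 and 24.6 in mock and 6.86 in dsCP190 replicate 2. Nrx-1, neurexin, had 9.58 and 12.7 and was lost. Of 29 cell adhesion and axon guidance genes 13 held members (14.2 by length), and 31 of their 33 members were lost and 2 called in a single list. CadN, N-cadherin, had mock folds of 20.6 and 17.6 at its strongest member, and Dscam4 18.1 and 16.8, without a call after dsCP190. The part of mock strength in the losses of either list was not tested.

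Of 11 muscle genes 5 held members (4.65 by length), with 4 of 6 lost, near the 72.4% of all members. The kept ones were in how, a STAR-family RNA-binding protein (16.4 and 17.4 in mock, 3.74 and 6.94 in dsCP190), and in zormin, a titin-like Z-disc protein (15.0 and 17.3, then 3.10 and 5.32). In Msp300, a nesprin, the region had 10.2 and 12.7 and was lost.

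Members in genes of signalling pathways were counted in the same way, beside 72.4% lost and 13.7% kept among all members. Each list held too few members for a statement on it. For the Notch pathway the only gene was mam, a coactivator of Notch, 1 of 14 genes (3.04 by length), with a lost region at mock folds of 7.02 and 4.42. Of 13 BMP and activin genes, daw, a ligand, and shn, a transcription factor, held 3 lost members (2 genes, 2.53 by length). Of 12 Wnt genes 2 held members (3.42 by length): nkd, a feedback inhibitor, had a kept region with 22.4 and 19.6 in mock and 3.81 and 7.54 in dsCP190, and fz2, a receptor, a lost one with 5.62 and 6.57. Of 8 Hedgehog genes, ttv, which builds heparan sulphate, held 5 lost members (1 gene, 2.08 by length). Of 18 receptor tyrosine kinase and Ras genes, 3 held members (4.75 by length). There pnt, an ETS factor, was kept with folds of 14.4 and 7.02 in mock and 6.18 and 10.9 in dsCP190. Its summit held 523, 564, 346 and 466 fragments over backgrounds of 35.3, 79.5, 55.1 and 41.7, so the dsCP190 folds overlapped those of mock. Pvf3, a ligand, and sty, an inhibitor, held lost members with folds of 11.9 and 11.6 and of 4.03 and 4.21.

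Hemocyte, chromatin and germline genes held 8 members in all, too few for a statement, where 72.4% of all members were lost and 13.7% kept. Kc167 cells resemble hemocytes. Of 12 hemocyte genes 3 held members (1.92 by length), with 4 of 5 lost: Col4a1, a collagen IV chain, had 10.9 and 15.8, ush, a GATA cofactor, 4.63 and 5.15, and Pxn, peroxidasin, had 11.4 and 9.87 in mock and 3.10 in replicate 2. Of 17 insulator protein genes only mod(mdg4), whose product is a partner of CP190 at gypsy insulators, held a member (0.766 by length). That region, on 3R from 21373074 to 21374098, was kept, with 14.2 and 17.1 in mock and 3.26 and 5.56 in dsCP190. Of 23 Polycomb and trithorax group genes only Utx, a histone demethylase, did (2.74 by length), with a lost region at 2.44 and 4.85. Of 11 germline genes only vas did (1.55 by length), at a kept region that also lies in vig and solo, with 12.0 and 11.6 in mock and 3.38 and 5.20 in dsCP190. At a −log10 q of at least 10, the regions in Sytbeta, pyd, nkd, zormin and mod(mdg4) were each called in 1 dsCP190 list and not both.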

How the data were processed

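CP190 and CLAMP were mapped by ChIP-seq in 8 immunoprecipitations; the 4 inputs were not analysed here. The submitters' processing notes list MACS2 2.1.1.20160309, Bowtie2 2.3.4.1, deepTools 3.0.2, Picard 2.18.9 and cutadapt 1.16, without roles, and build dm6. Which input served as control, and how peaks were called, is not given in the sources used here. Peaks were called per sample. Every deposited peak carries the authors' fold enrichment (a ratio), −log10 p-value, −log10 q-value and score. The score was not used. The design text of the series names CLAMP knockdown, but the sample labels name CP190 knockdown and were followed.

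A dsCP190 call needed an overlap of at least 1 bp. Whole fragments and local background were recovered by solving the deposited fold and −log10 p-value together, to a tolerance of 0.001. The scripts were tested on simulated data. Genes came from an NCBI RefSeq table of Release 6, without strand or exons, so the planned motif search was not run and no sequence is shown. Of 293 listed symbols apart from ribosomal protein genes, 290 matched. A region inside several genes counts for each. The numbers of genes given by length apply the share of hosts in each of the length classes of all autosomal genes.

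Members were ranked by the mean of their mock ranks. Named were, with symbols other than CG or CR numbers, the first 12 lost, 12 kept and 4 called in 1 list, the 5 genes with the highest counts, up to 3 genes per list, and the 3 regions on each side of the 500 bp limit. Regions named beyond these, such as further members of named genes, those in E2f1, pum, Glut1, Eip63E, EcR and Eip93F and those beside noncoding genes, were chosen after their values were seen. The members and the 17 gene lists were chosen with earlier results of these data known. The result of 1 list is not reported here. Alternatives were stricter −log10 q, equal list lengths, summit overlap, other distances, other strata and leaving out each replicate. Python 3.11.15, numpy 2.4.6, pandas 2.3.3 and scipy 1.17.1 were used.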

Additional observations from a re-analysis of the deposited data

How the results depend on the processing

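The lower odds ratios against all other autosomal regions, gene ends and shared regions kept their direction and both intervals below 1 under every alternative run, with ranges of 0.315 to 0.573, 0.326 to 0.647 and 0.0927 to 0.506. The odds ratio against intergenic regions had no fixed direction. In dsCP190 replicate 1 it was 0.983 with −log10 q of at least 3, 0.914 with at least 10, 0.966 where the peak had to hold the mock summit, 0.955 at 250 bp from gene ends, 0.966 without any mock CLAMP peak, 0.866 with strata from −log10 q (chosen after seeing the data), and 0.759 (0.592 to 0.973) with no strata, where replicate 2 gave 0.844. Leaving out each replicate gave 0.870 to 1.08 for dsCP190 replicate 1, and for replicate 2 it gave 1.07 to 1.35. The highest, without mock replicate 2, had an interval of 1.01 to 1.80. The cause was not tested.

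The share of members called in dsCP190 replicate 2 was 23.7% with −log10 q of at least 10 and 20.6% with lists of equal length, and it ranged from 23.5% to 27.0% as replicates were left out. The kept count then ranged from 154 to 305, the highest needing a call in replicate 2 alone. The dsCP190 to mock ratio of peak numbers was 0.221 at −log10 q of at least 10. With replicate number as a block, the ratio of peak numbers was 0.332 and the smallest possible p of 0.5 was reached; nothing in the labels says that equal numbers mark a pair. The weakest calls at members after dsCP190 held 15 and 14 fragments, and the part of depth in the calls of weak members was not tested.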

Other observations

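A few members lay beside small noncoding genes, within 500 bp of them. Of all members 13.7% were kept and 72.4% lost. There were 5 members (0.442%) at tRNA genes, which RNA polymerase III transcribes. The share was 0.579% of CP190-only regions at gene ends, 1.58% of intergenic ones and 1.20% of shared regions inside genes. Among the 5 members, the region in gol at tRNA:Ala-CGC genes was kept, with folds of 42.9 and 24.2 in mock and 10.1 and 12.1 in dsCP190. The pyd region, at a tRNA:Arg-TCG gene, was kept too. The regions in CG12831 at tRNA:Thr-AGT (18.2 and 17.7), EcR (2.33 and 2.81) and ATP8A (2.95 and 2.71) were lost.

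Another 3 members (0.265%) lay at snRNA genes of the splicing and histone-processing machinery. The share was 0.170% of CP190-only regions at gene ends, 0.132% of intergenic ones and 0% of shared regions inside genes. The regions in Atg18b at snRNA:U4:39B (24.4 and 18.3 in mock, 4.84 and 10.6 in dsCP190) and in Eip63E at snRNA:U7 (11.7 and 11.4, then 3.97 and 7.90) were kept, and the region in sick at U5 and U2 genes (7.65 and 4.88) was lost. Of 3 members (0.265%) at snoRNA genes, the one in stet was kept (10.5 and 9.94, then 2.54 and 5.47) and those in CG4238 and Dys were lost. In the same order of classes, 0.409%, 0.395% and 0% lay at snoRNA genes. The 1 member (0.0884%) at a microRNA gene, mir-964 in DIP-theta, was lost (11.9 and 8.08). For microRNA genes the other shares were 0.272%, 0% and 0.398%. Another 24 members (2.12%) lay at lncRNA genes, of which 1 and 4 were called in dsCP190 replicates 1 and 2, and the shares lying at such genes were 1.81% of CP190-only regions at gene ends, 4.78% of shared regions inside genes and 7.11% of CP190-only intergenic regions. These members are too few for a comparison.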
